A study of Homo sapiens with 30 samples.

Results

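TGF-beta and BMP signals were followed through 9 genes chosen by name, TGFB1, TGFB2, BMP4, INHBA, TGFBR1, TGFBR2, SMAD3, SMAD6 and SMAD7, all of which are among the 20367 gene symbols of the PRO-seq table. The samples are from G401, an established malignant rhabdoid tumour line that lacks SNF5 (encoded by SMARCB1), a subunit of the SWI/SNF chromatin remodeller. The cells carried a lentiviral TET-inducible construct for EGFP (the control), for SNF5, or for OMOMYC, a dominant-negative form of MYC, and cells of all 3 groups were G418-selected and were given 1 µg/ml doxycycline for 24 h. PRO-seq, which maps engaged RNA polymerases, and ATAC-seq, which maps accessible chromatin, had 3 samples per construct, and MYC ChIP-seq had 2. The introduced SNF5 and OMOMYC are expressed from a transgene, in a line with no SNF5 of its own.

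Ligands of this family are secreted dimers. TGFB1 and TGFB2 bind the type II receptor TGFBR2, which activates the type I receptor TGFBR1, and the receptors phosphorylate SMAD2 and SMAD3. BMP4 acts through BMP receptors on SMAD1, SMAD5 and SMAD9, and INHBA encodes the activin A subunit, which signals through activin receptors to SMAD2 and SMAD3. SMAD6 and SMAD7 are inhibitory SMADs that the pathway induces as feedback, SMAD6 mainly against BMP signals and SMAD7 against both branches. Cells without TGFBR2 do not respond to TGF-beta ligands.

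Gene body counts summed to between 28388012 and 46859674 reads per PRO-seq sample, and promoter-proximal counts to between 517821 and 3381189. The 3 samples numbered replicate 1 held the lowest promoter-proximal totals, at most 671718 reads. SMARCB1 gene bodies held 4, 1 and 6 reads in the EGFP samples, 2, 5 and 4 in OMOMYC and 2870, 4467 and 3440 in SNF5. The epithelial keratins KRT8 and KRT18 and the mesenchymal filament gene VIM, which mark rhabdoid cells, had at least 2790 reads in every sample. With OMOMYC all 3 were lower (VIM −0.28, KRT8 −0.31 and KRT18 −0.31 on the log2 scale, edgeR adjusted p = 0.0408, 0.0243 and 0.0254), and with SNF5 KRT18 was (−0.27, edgeR adjusted p = 0.00746), and their part in the results was not tested. The leukocyte gene PTPRC had at most 1 read, the endothelial gene PECAM1 had 0 in all samples and the hepatocyte gene ALB at most 8. Fewer cells of a type and less RNA per cell cannot be told apart in these bulk samples. The comparisons of SNF5 and of OMOMYC with EGFP share the EGFP samples, and their values are given side by side.

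Levels in control cells spanned a wide range. BMP4 was the most transcribed of the 9 genes, and the receptor gene TGFBR2 was near the bottom of the genes tested. Gene body levels are given in RPKM, the reads per kb of gene body and per 1000000 scaled reads. In EGFP cells, mean levels were 49.9 ± 12.8 (SD, n = 3) for BMP4, 8.69 ± 1.13 for SMAD6, 3.57 ± 0.60 for SMAD7 and 2.94 ± 0.33 for SMAD3. TGFB1 had a level of 1.69 ± 0.22, TGFBR1 of 0.708 ± 0.035 and TGFB2 of 0.243 ± 0.025. INHBA and TGFBR2 came last, at 0.00233 ± 0.00222 and 0.00129 ± 0.00049. SMAD7 and SMAD3 overlapped between samples, as did INHBA and TGFBR2, and the other neighbours in this order did not. BMP4 was above 99.8% of the genes tested, TGFB1 above 59.9% and TGFBR2 above 1.33%. The genes tested had a mean of at least 10 reads over the 9 samples, which TGFBR2 reached only through its SNF5 samples. With OMOMYC and with SNF5 the first 7 genes kept this order, and TGFBR2 moved ahead of INHBA, although the samples of these 2 genes still overlapped.

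**Figure D1:**
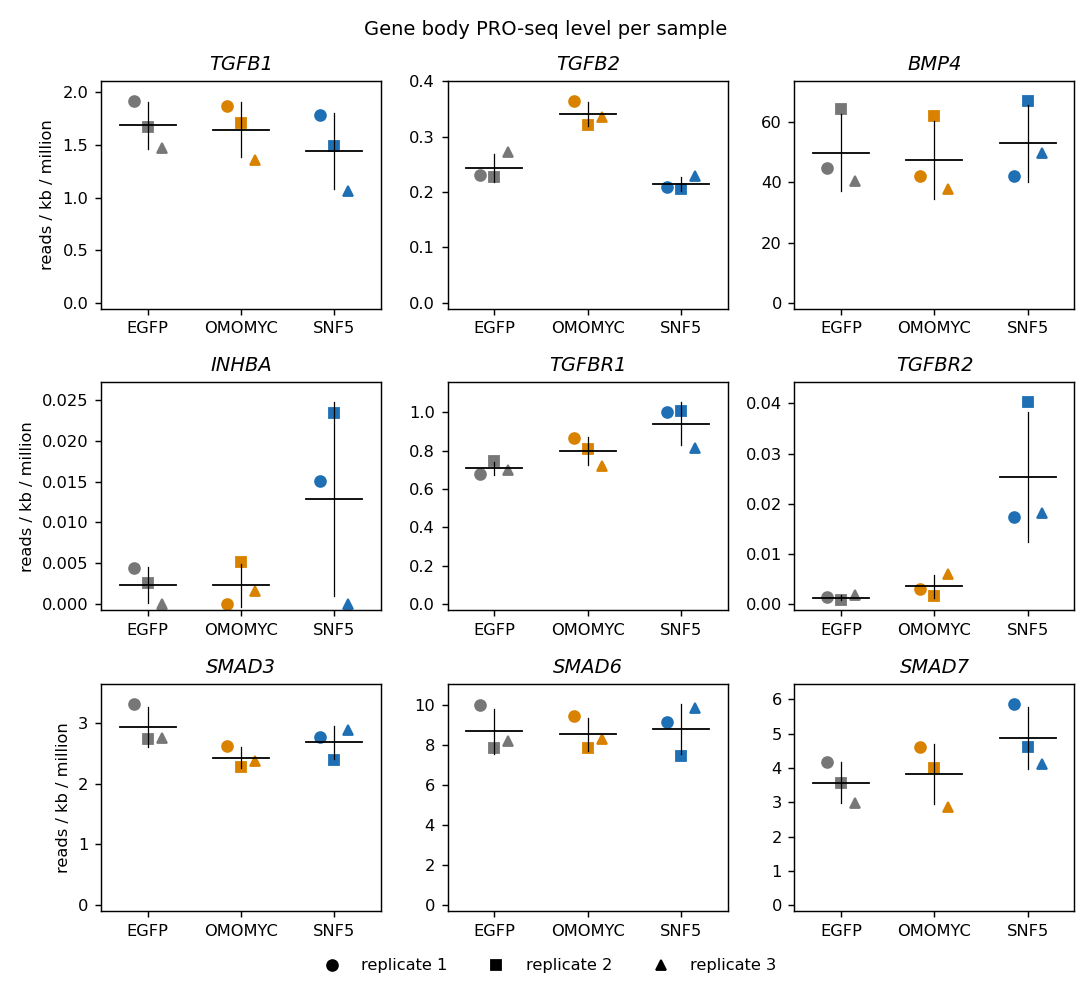
Gene body level (RPKM, linear axis) of each gene in every PRO-seq sample. Marker shapes give the replicate number, horizontal lines the mean and vertical lines the SD of 3 samples. TGFBR2 lies between 0.0174 and 0.0402 in the 3 SNF5 samples and at or below 0.00175 in the 3 EGFP samples.

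The gene body comparison asked which of these genes gained or lost engaged polymerase when SNF5 was restored or MYC was antagonised. With SNF5, 3 members were higher (TGFBR2, SMAD7 and TGFBR1), 1 was lower (TGFB1), and 4 did not pass the test. INHBA had too few reads to be tested. Across all 15060 genes tested, 17.3% were called higher and 17.1% lower with SNF5, so changes in either direction were common. With OMOMYC, 1 member was higher (TGFB2) and 1 was lower (SMAD3), beside 3.98% higher and 4.52% lower among all genes. The median log2 fold change of the 8 tested members was 0.06 with SNF5 and 0.03 with OMOMYC, beside −0.03 and −0.00 over all genes. These tests compare samples within a replicate number. Without that block, only TGFBR2 with SNF5 passed (4.22, edgeR adjusted p = 0.0250), and the other 8 calls of the 3 comparisons did not.

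**Figure D2:**
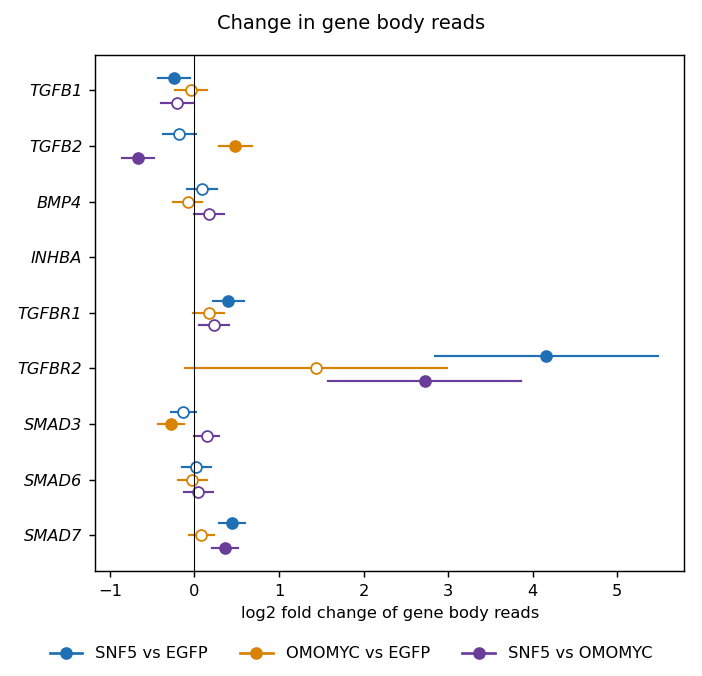
Log2 fold change of gene body reads for each gene in the 3 comparisons. Points are estimates, bars are 95% intervals from edgeR's quasi-likelihood fit, filled points passed the adjusted p threshold of 0.05, and INHBA was not tested. The 3 filled SNF5 vs EGFP points right of 0 are TGFBR1, TGFBR2 and SMAD7.

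TGFBR2, the type II receptor for TGF-beta ligands, showed the largest change of the 9. It lies on chromosome 3 of hg19 from 30647994 to 30735633 on the plus strand. Its gene body held 4, 2 and 7 reads in the EGFP samples, 9, 4 and 24 in OMOMYC, and 61, 125 and 70 in SNF5. All SNF5 samples were above all others, and the OMOMYC samples overlapped those of EGFP. TGFBR2 passed the filter, a mean of 10 reads over the 9 samples, only through its SNF5 samples. Their mean was 85.3 reads, against 4.33 in EGFP and 12.3 in OMOMYC. Summed and scaled for depth, SNF5 samples had 256 reads against 13 in EGFP, a ratio of 18 (exact 95% interval from 10.3 to 34.3, counting error alone). TGFBR2 rose by 4.16 on the log2 scale with SNF5 (SE 0.58, edgeR adjusted p = 0.00113) and the OMOMYC difference was 1.44 (SE 0.69, edgeR adjusted p = 0.201). SNF5 exceeded OMOMYC by 2.72 (SE 0.50, edgeR adjusted p = 0.00643), a call that did not pass without the samples numbered replicate 1 (2.86, edgeR adjusted p = 0.055). The call with SNF5 over EGFP passed the threshold whichever single sample was left out. Even with SNF5 the level of TGFBR2, 0.0253 ± 0.0129 RPKM, was far below the 0.941 ± 0.112 of TGFBR1, its partner in the receptor complex. Promoter-proximal reads of TGFBR2 were too few to test. The window held 0 reads in all EGFP samples and 0, 3 and 0 in SNF5, and a count of 0 allows up to 3. Its mean over the 9 samples was 0.556 reads, so OMOMYC samples held some too.

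TGFBR2 was also the only member with an accessible site gained at its own start. On GRCh38, the genome of the ATAC-seq files, a site from 30606377 to 30606720 on chromosome 3 was a peak in 3 of 3 SNF5 samples and in 0 of 3 EGFP and 0 of 3 OMOMYC samples. Its fold enrichment over the local background was 4.76, 5.39 and 4.69 in the SNF5 samples, with −log10 q of 6.83, 5.92 and 5.34. The summits lay at +20, +9 and −89 bp from the more 3′ of 2 RefSeq starts. Another RefSeq gene, LOC105377015, also lies at the site. Among 15315 genes matched to RefSeq, 2.53% held such a gained site centred at most 1 kb from a start. A second site 87.1 kb past the start, near the 3′ end of the gene, was a peak in 2 EGFP, 2 OMOMYC and 3 SNF5 samples. The peaks at the start were weak, and when lists were cut to equal length, or to −log10 q of at least 10, the site was no longer called gained.

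The sequence under this site is shown because it is the accessible site gained at the start of TGFBR2, whose gene body reads, counted from 1 kb past the start, rose. It is the RefSeq promoter window at chr3:30606351-30606650 (GRCh38.p14, plus strand, 250 bases before to 50 after the start), with TGANTCA, the AP-1 motif, in capitals.
TGFBR2: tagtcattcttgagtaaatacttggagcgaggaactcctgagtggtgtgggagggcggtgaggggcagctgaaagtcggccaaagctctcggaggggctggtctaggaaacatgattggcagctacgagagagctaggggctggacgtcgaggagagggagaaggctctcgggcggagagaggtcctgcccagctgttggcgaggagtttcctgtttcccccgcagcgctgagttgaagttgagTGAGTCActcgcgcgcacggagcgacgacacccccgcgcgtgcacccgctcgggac
The match to the AP-1 motif begins at position −6 from the start. Searched on both strands, TGANTCA was in 7.71% of 35116 RefSeq promoter windows, and in 2 of 25 windows of the 9 genes, the other at an internal start of SMAD3. The window is 61.7% G or C, beside a median of 58.7% over all windows.

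TGFBR1, the type I receptor, also rose with SNF5. On chromosome 9 of hg19, from 101867410 to 101916470 on the plus strand, it had levels of 0.677, 0.747 and 0.701 RPKM in EGFP, 0.865, 0.811 and 0.722 in OMOMYC and 1.00, 1.01 and 0.812 in SNF5. The SNF5 samples were all above the EGFP samples, and OMOMYC overlapped both. The log2 fold change was 0.40 with SNF5 (SE 0.08, edgeR adjusted p = 0.00606), 0.17 with OMOMYC (SE 0.08, edgeR adjusted p = 0.205) and 0.23 for SNF5 over OMOMYC (SE 0.08, edgeR adjusted p = 0.0774). The SNF5 over EGFP call did not pass when the samples numbered replicate 1 (edgeR adjusted p = 0.102) or replicate 2 (0.0818) were left out. Without the samples numbered replicate 3, TGFBR1 passed with OMOMYC (0.24, edgeR adjusted p = 0.0102) and for SNF5 over OMOMYC (0.26, edgeR adjusted p = 0.00460), and the latter also passed without SNF5 replicate 3 (0.29, edgeR adjusted p = 0.0255). Its start was an ATAC peak in all 9 samples, the only such site at the 9 loci. A site 64.5 kb from the start and 15.8 kb past the end of TGFBR1, with no RefSeq gene at it, was gained with SNF5, at fold enrichments of 4.30, 5.60 and 4.81.

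SMAD7, the inhibitory SMAD of both branches, was higher with SNF5 by 0.44 on the log2 scale (SE 0.07, edgeR adjusted p = 0.00162). Its levels were 4.17, 3.56 and 2.98 in EGFP, 4.60, 4.0 and 2.86 in OMOMYC and 5.87, 4.62 and 4.10 in SNF5. The groups overlapped, but within each replicate number SNF5 was above EGFP and above OMOMYC. SNF5 exceeded OMOMYC by 0.36 (SE 0.07, edgeR adjusted p = 0.00651), which did not pass without the samples numbered replicate 1 (edgeR adjusted p = 0.0934), and OMOMYC differed from EGFP by 0.08 (SE 0.07, edgeR adjusted p = 0.444), or by 0.15 without the samples numbered replicate 3 (edgeR adjusted p = 0.00662). The SNF5 over EGFP call passed whichever sample or replicate number was left out, at 0.40 to 0.50. SMAD7 lies on chromosome 18 of hg19 from 46446223 to 46477081 on the minus strand. On GRCh38 a site inside the gene, 12.5 kb past its nearest start, was a peak in 3 SNF5 samples (fold enrichment 4.68, 5.82 and 5.03), in 1 OMOMYC sample (4.05) and in no EGFP sample. No site was centred within 1 kb of a SMAD7 start, and the nearest, at −1.04 kb, was a peak in 1 sample of each construct.

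SMAD6, the inhibitory SMAD of the BMP branch, was transcribed at 9.98, 7.88 and 8.20 RPKM in EGFP, 9.44, 7.85 and 8.31 in OMOMYC and 9.15, 7.43 and 9.87 in SNF5. The groups overlapped throughout, with log2 differences of 0.02 for SNF5 (95% interval −0.15 to 0.19, edgeR adjusted p = 0.852) and −0.02 for OMOMYC (−0.20 to 0.15, edgeR adjusted p = 0.870). Without the samples numbered replicate 3 the SNF5 difference was −0.11 (edgeR adjusted p = 0.00133). Sites centred at the SMAD6 start and at −970 bp from it were peaks in 2 EGFP, 3 OMOMYC and 3 SNF5 samples each. The promoter window at chr15:66701986-66702285 (GRCh38.p14, plus strand) is shown because it is accessible in all groups and holds GTCTAGAC, the palindromic SMAD element, in capitals.
SMAD6: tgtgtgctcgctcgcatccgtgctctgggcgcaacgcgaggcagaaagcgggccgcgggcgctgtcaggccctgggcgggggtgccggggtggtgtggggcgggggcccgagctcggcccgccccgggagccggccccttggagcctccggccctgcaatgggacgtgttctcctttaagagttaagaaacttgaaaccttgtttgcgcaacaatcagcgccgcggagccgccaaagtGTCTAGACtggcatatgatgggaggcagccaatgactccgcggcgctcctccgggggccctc
The match begins at position −12 from the start. GTCTAGAC was in 0.202% of all promoter windows, CAGACA in 16.9%, GGCGCC in 19.2% and the E-box CACGTG in 7.26%. These shares are per window, and the 9 genes have 25 windows. CAGACA was in 6 of the 25, from 5 genes (TGFB2, BMP4, INHBA, TGFBR1 and SMAD3). GGCGCC was in 3 of the 25 (BMP4, TGFBR1 and SMAD3), below its share of all windows. CACGTG was in 3 of the 25 (TGFB2, BMP4 and SMAD3).

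SMAD3, which carries TGF-beta and activin signals to the nucleus, was lower with OMOMYC. It had levels of 3.32, 2.73 and 2.76 in EGFP, 2.62, 2.28 and 2.38 in OMOMYC and 2.76, 2.38 and 2.89 in SNF5. The OMOMYC samples were all below the EGFP samples, and SNF5 overlapped both. The log2 fold change was −0.27 with OMOMYC (SE 0.07, edgeR adjusted p = 0.0402) and −0.13 with SNF5 (SE 0.07, edgeR adjusted p = 0.156), and SNF5 exceeded OMOMYC by 0.14 (SE 0.07, edgeR adjusted p = 0.163). The SMAD3 call with OMOMYC did not pass without EGFP replicate 1 or 2 or without OMOMYC replicate 1, 2 or 3 (edgeR adjusted p from 0.0664 to 0.249), nor without the samples numbered replicate 1 or 2 (0.520 and 0.436). With SNF5, SMAD3 passed as lower without EGFP replicate 3 (−0.20, edgeR adjusted p = 0.0390) or SNF5 replicate 3 (−0.22, edgeR adjusted p = 0.00559). Without the samples numbered replicate 3, SMAD3 passed as lower both with SNF5 and with OMOMYC. SMAD3 lies on chromosome 15 of hg19 from 67358195 to 67487533 on the plus strand. Its start was an ATAC peak in 3 EGFP, 2 OMOMYC and 3 SNF5 samples.

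TGFB2 was the one ligand that was higher with OMOMYC. Its levels were 0.230, 0.227 and 0.272 in EGFP, 0.364, 0.321 and 0.335 in OMOMYC and 0.210, 0.204 and 0.229 in SNF5. All OMOMYC samples were above those of the other constructs, and SNF5 overlapped EGFP. The log2 fold change was 0.49 with OMOMYC (SE 0.09, edgeR adjusted p = 0.0242) and −0.18 with SNF5 (SE 0.09, edgeR adjusted p = 0.134). The direct comparison gave −0.67 for SNF5 against OMOMYC (SE 0.09, edgeR adjusted p = 0.00107), and this call passed whichever sample was left out. The TGFB2 call with OMOMYC over EGFP did not pass without EGFP replicate 1 or 2 or without OMOMYC replicate 1 or 2 (edgeR adjusted p from 0.171 to 0.215), nor without the samples numbered replicate 1 or 2 (0.471 and 0.432). In the comparison of SNF5 with OMOMYC, 2 members were higher and 1 lower, beside 11.4% higher and 7.54% lower among all genes.

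TGFB2 had 3 of the 6 sites gained with SNF5 at the 9 loci. It lies on chromosome 1 of hg19 from 218518680 to 218617960 on the plus strand. On GRCh38 a pair of neighbouring sites, 15.3 and 15.8 kb past the gene's end, were peaks in 3 of 3 SNF5 samples and in no other. Fold enrichments there were 5.90, 6.61 and 6.72 at the nearer site and 4.27, 7.25 and 6.65 at the farther. The other gained site lay at −45.8 kb from the start, within RRP15, and was also a peak in 2 OMOMYC samples. No site was centred within 1 kb of the TGFB2 start.

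TGFB1, on chromosome 19 of hg19 from 41836812 to 41859831 on the minus strand, was lower with SNF5 by a small margin. Its levels were 1.92, 1.67 and 1.47 in EGFP, 1.87, 1.71 and 1.36 in OMOMYC and 1.78, 1.49 and 1.06 in SNF5. Groups overlapped, and SNF5 was below EGFP in each of the 3 replicate numbers. The log2 fold change was −0.25 with SNF5 (SE 0.08, edgeR adjusted p = 0.0477), −0.04 with OMOMYC (SE 0.08, edgeR adjusted p = 0.784) and −0.20 for SNF5 against OMOMYC (SE 0.08, edgeR adjusted p = 0.121). The TGFB1 call did not pass without any 1 of the EGFP samples or without SNF5 replicate 2 or 3 (log2 −0.29 to −0.15, edgeR adjusted p from 0.0909 to 0.137), nor without any 1 of the replicate numbers (0.101 to 0.173). Peaks at the TGFB1 start were found in SNF5 replicate 1 alone. An annotated gene on the opposite strand overlaps 9.42% of its gene body.

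BMP4, the most transcribed member, did not pass the test in any comparison. On chromosome 14 of hg19, from 54416455 to 54423554 on the minus strand, it had levels of 44.6, 64.4 and 40.6 in EGFP, 42.0, 62.1 and 37.9 in OMOMYC and 42.1, 67.0 and 49.8 in SNF5. Groups overlapped, and the sample numbered replicate 2 was highest in each. The log2 differences were 0.09 with SNF5 (95% interval −0.08 to 0.27, edgeR adjusted p = 0.382), −0.08 with OMOMYC (−0.25 to 0.09, edgeR adjusted p = 0.525) and 0.17 between SNF5 and OMOMYC (−0.00 to 0.35, edgeR adjusted p = 0.150). A site at −155 bp from the nearest of 3 RefSeq starts was an ATAC peak in EGFP replicate 3 and SNF5 replicate 1, and a site at −1.82 kb was a peak in 2 EGFP, 1 OMOMYC and 3 SNF5 samples. An annotated gene on the opposite strand overlaps 19.1% of the BMP4 gene body.

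INHBA, on chromosome 7 of hg19 from 41728601 to 41742706 on the minus strand, was at the limit of detection. Its gene body held 2, 1 and 0 reads in EGFP, 0, 2 and 1 in OMOMYC and 8, 11 and 0 in SNF5. The SNF5 samples disagreed, with replicate 3 at 0, which allows up to 3 reads. The summed reads, 19 against 3, gave a scaled ratio of 5.79 (exact 95% interval from 1.70 to 30.5 for counting error alone). The spread between samples is not in this interval, reads may not be independent molecules, and INHBA did not pass the filter of the main tests. With no filter on low counts INHBA was tested in gene bodies, and it was not called in any comparison. The antisense gene INHBA-AS1 covers 62.8% of the INHBA gene body. Sites at −2.21 and +6.48 kb from the INHBA start were peaks in 3 SNF5 samples each, in 2 and 1 EGFP samples and in 2 OMOMYC samples each.

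The promoter-proximal count is that of the fullest 50 bp window near the start, and the pausing index is the ratio of read density in that window to density in the gene body. In both, 0 of the 7 members with enough reads passed edgeR's test in any comparison. Among 11241 genes, 4.31% were called in either direction with SNF5, 1.72% with OMOMYC and 0.854% between SNF5 and OMOMYC in promoter-proximal reads. For the pausing index the shares were 3.65%, 2.01% and 1.15% of 11171 genes. At an unadjusted p under 0.05, edgeR had 1, 2 and 0 members in the promoter-proximal comparisons and 2, 2 and 1 for the pausing index. DESeq2 had 0 members at its adjusted threshold, with 1, 2 and 0 and then 1, 1 and 1 unadjusted.

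SMAD3 and SMAD6 had differences of opposite sign at the start, neither past the threshold with all samples. SMAD6 promoter-proximal reads were 114, 1931 and 1632 in EGFP, 128, 1502 and 815 in OMOMYC and 152, 1251 and 837 in SNF5. Samples numbered replicate 1 were low for every construct, and SNF5 was below EGFP in replicates 2 and 3. The SMAD6 log2 difference was −0.60 in promoter-proximal reads with SNF5 (SE 0.23, edgeR adjusted p = 0.133) and −0.61 in pausing index (SE 0.24, edgeR adjusted p = 0.142). Without EGFP replicate 1 both passed, at −0.87 (edgeR adjusted p = 0.00364) and −0.94 (0.00331) for SMAD6, as did the OMOMYC differences, at −0.71 (0.0385) and −0.74 (0.0463). The pausing index of SMAD3 was 6.46, 139 and 115 in EGFP, 11.7, 291 and 155 in OMOMYC and 12.6, 274 and 99.4 in SNF5. It was above EGFP in 3 of 3 replicate numbers with OMOMYC and in 2 of 3 with SNF5. The SMAD3 log2 differences were 0.77 with OMOMYC (SE 0.24, edgeR adjusted p = 0.0694) and 0.53 with SNF5 (SE 0.24, edgeR adjusted p = 0.210), and without EGFP replicate 3 both passed, at 1.12 (edgeR adjusted p = 0.00384) and 0.86 (0.0338). Over all genes the median log2 change in promoter-proximal reads with OMOMYC was 0.12, and −0.03 with scaling from promoter-proximal counts.

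**Figure D3:**
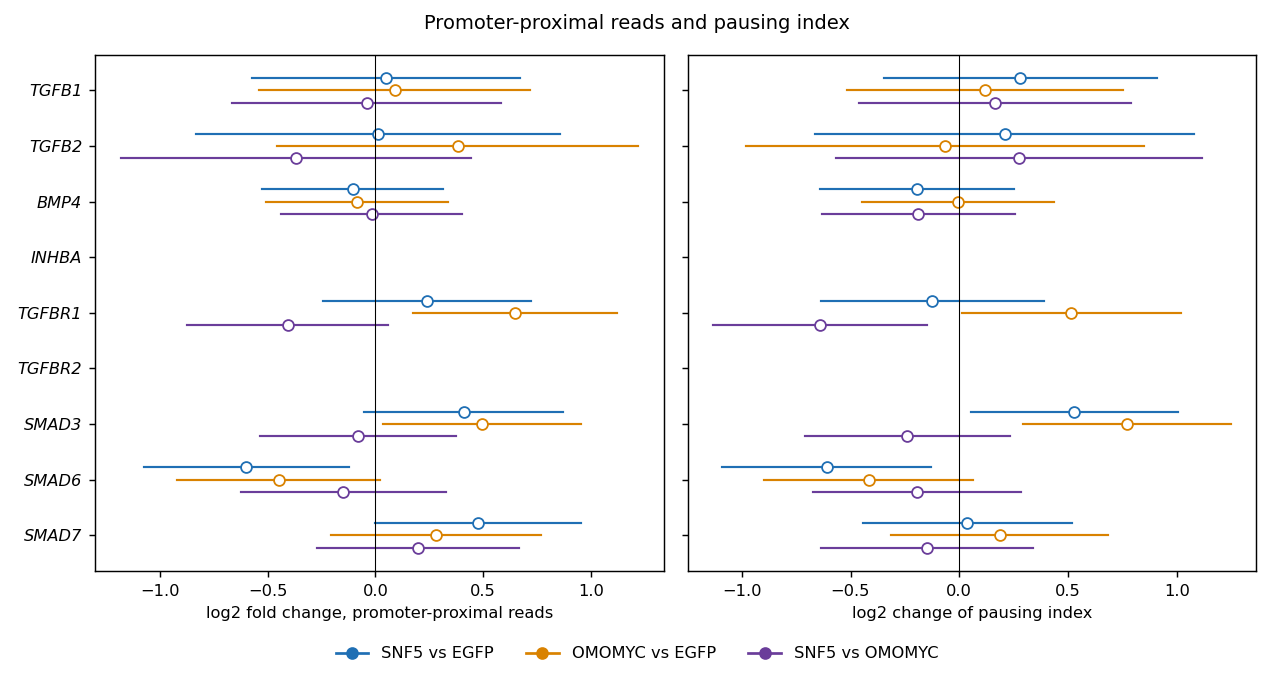
Log2 change of promoter-proximal reads (left) and of the pausing index (right) with 95% intervals from edgeR, for the 7 genes with enough reads. All points are open, since 0 passed the adjusted p threshold, and the SMAD6 and SMAD3 points for SNF5 vs EGFP lie on opposite sides of 0.

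Accessible sites were compared over the gene and 50 kb to each side, on GRCh38. The 9 loci held 43 merged sites, of which 40 were peaks in at least 1 SNF5 sample, 23 in OMOMYC and 17 in EGFP. With SNF5 6 sites at 4 loci (TGFB2, TGFBR1, TGFBR2 and SMAD7) were gained, that is peaks in 3 of 3 SNF5 and 0 of 3 EGFP samples, and 0 were lost, while OMOMYC had 0 gained and 0 lost. At least 1 site gained with SNF5 was found at 21.0% of the 15315 genes, and over the series 3638 sites were gained and 3 lost. The loci held 9, 15 and 5 peaks in the EGFP samples, 4, 23 and 13 in OMOMYC and 35, 28 and 21 in SNF5. SNF5 samples were all above EGFP samples (28.0 ± 7.0 against 9.67 ± 5.03, p = 0.1 by a two-sided exact permutation test, which cannot go lower with 3 against 3). OMOMYC overlapped both (13.3 ± 9.5, exact permutation p = 0.7 against EGFP and 0.2 against SNF5).

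The length of the peak lists moved with this result. They held 22722 to 33596 peaks with SNF5, 9208 to 17817 with EGFP and 7260 to 23684 with OMOMYC. Per 1000 peaks of the sample, the 9 loci held 1.04, 1.05 and 0.924 with SNF5 and 0.721, 0.842 and 0.543 with EGFP (exact permutation p = 0.1). OMOMYC samples held 0.551, 0.971 and 1.06 per 1000 and overlapped both other groups (exact permutation p = 0.7 against SNF5 and 0.4 against EGFP), with replicate 3 above every SNF5 sample. With the 7260 strongest peaks of each sample, the loci held a mean of 5.33 peaks with EGFP and 4.33 with SNF5, and 0 sites were gained. Sequencing depth was not used here, and the part of list length in the result was not tested further.

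**Figure D4:**
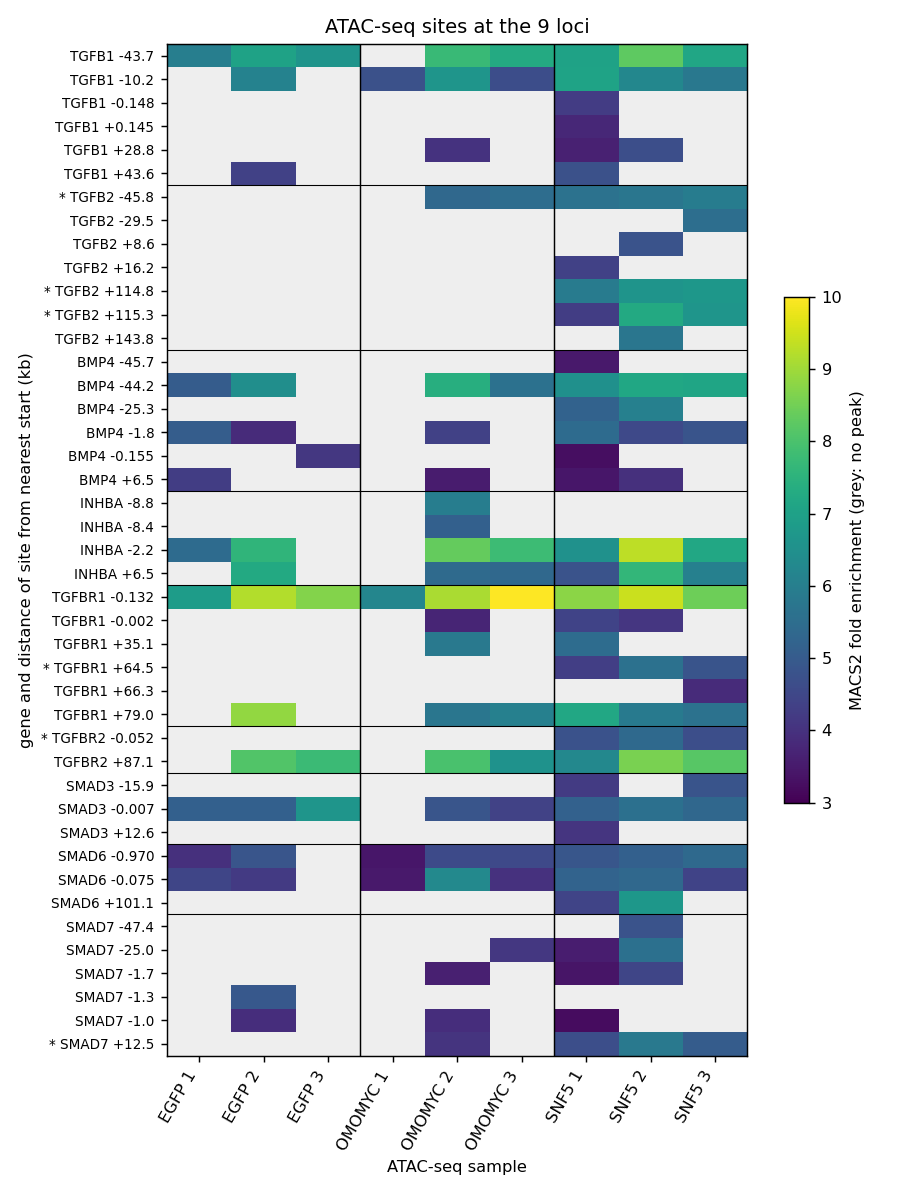
Fold enrichment (colour, over local background by MACS2) of each ATAC-seq site at the 9 loci in every sample. Rows give the gene and the distance of the site from the nearest RefSeq start in kb, grey marks no peak, and asterisks mark the 6 sites gained with SNF5, at TGFB2, TGFBR1, TGFBR2 and SMAD7.

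MYC was mapped near the starts of 3 of the 9 genes in EGFP cells. BMP4 had a peak in each EGFP sample, enriched 4.60-fold and 4.65-fold, with summits at −281 and −208 bp from the start of the transcript in the PRO-seq table. SMAD3 (fold enrichment 5.67, summit at −467 bp) and TGFBR1 (3.65, −217 bp) had a peak in EGFP replicate 2 alone. That list held 5396 peaks and the other 940, and 23.2% and 4.35% of all genes had a peak within 1 kb of a start in them, with 4.31% in both. No member had a peak in SNF5, whose lists held 137 and 27 peaks, or in OMOMYC, whose lists held 0. With 2 samples per construct no test was made.

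The 300 bases around the summits of EGFP replicate 2 are shown for BMP4, bound in both samples, and for SMAD3, whose gene body reads were lower with OMOMYC. They come from GRCh37, the build of the ChIP-seq files, on the strand of the gene, with the E-box CACGTG in capitals. The BMP4 window is chr14:54423613-54423912 (minus strand) and the SMAD3 window is chr15:67357579-67357878 (plus strand).
BMP4: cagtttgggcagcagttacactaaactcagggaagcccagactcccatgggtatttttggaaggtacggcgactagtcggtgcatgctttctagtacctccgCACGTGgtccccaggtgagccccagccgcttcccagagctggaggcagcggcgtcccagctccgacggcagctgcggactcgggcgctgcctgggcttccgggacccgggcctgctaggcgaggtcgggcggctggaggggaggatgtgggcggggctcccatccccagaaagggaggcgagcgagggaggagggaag
SMAD3: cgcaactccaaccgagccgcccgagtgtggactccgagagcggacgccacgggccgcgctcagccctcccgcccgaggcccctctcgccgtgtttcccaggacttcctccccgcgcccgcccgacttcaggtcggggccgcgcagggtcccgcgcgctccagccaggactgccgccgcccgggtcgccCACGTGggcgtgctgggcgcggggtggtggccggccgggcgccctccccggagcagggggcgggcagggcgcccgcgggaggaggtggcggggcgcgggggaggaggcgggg
Each window holds 1 CACGTG, which was in 29.9% of the 5396 windows of this length around the peaks of that sample.

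The wider pathway was described with lists of ligands, receptors, SMADs, inhibitors and textbook targets, 103 genes with the members. Of 84 tested in gene bodies, 27 were higher and 13 lower with SNF5, and 5 were higher and 8 lower with OMOMYC, beside the shares of all genes given above. The medians of their log2 fold changes were 0.10 and 0.04. Of the 14 receptors, 8 were higher and 1 was lower with SNF5. Beside TGFBR2 and TGFBR1 these included AMHR2 (log2 fold change 1.77, edgeR adjusted p = 0.0221), the type II receptor for anti-Müllerian hormone, and ENG (1.24, edgeR adjusted p = 0.000549), a co-receptor. With OMOMYC the type I receptor ACVRL1 was higher by 1.2 on the log2 scale (edgeR adjusted p = 0.0310), in 14 receptors with 2 higher and 1 lower. ACVRL1 was also among the 8 higher with SNF5 (0.81, edgeR adjusted p = 0.0395). SNF5 against OMOMYC did not pass for it (−0.40, edgeR adjusted p = 0.291).

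Secreted antagonists of BMPs and activins were higher in 4 of 9 tested with SNF5 and lower in 0. Over all genes tested, 17.3% were higher and 17.1% lower with SNF5, and 3.98% and 4.52% with OMOMYC. FSTL1, a follistatin-like protein, rose by 2.20 (SE 0.37, edgeR adjusted p = 0.00259), from 841, 791 and 9379 gene body reads in EGFP to 7328, 6621 and 15430 in SNF5. The samples numbered replicate 3 stood apart for this gene in every construct. BMPER (2.10, edgeR adjusted p = 0.00142) and GREM1 (1.98, edgeR adjusted p = 0.0452), both BMP-binding proteins, also rose, GREM1 from at most 7 reads per EGFP sample. GREM1 averaged 10.3 reads over the 9 samples and passed the filter of 10 through its SNF5 reads. Of the 19 ligands tested, 1 was higher and 3 lower with SNF5, neither above the share of all genes. BMP2 was higher (1.80, edgeR adjusted p = 0.00746) and BMP6 lower (−0.77, edgeR adjusted p = 5.5e-05). With OMOMYC, TGFB2 was higher, while GDF15 (−0.58, edgeR adjusted p = 0.0193), BMP7 (−0.31, edgeR adjusted p = 0.0253) and BMP6 (−0.24, edgeR adjusted p = 0.0394) were lower.

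Receptor and common SMADs had 2 of 6 higher with SNF5, SMAD1 (0.51, edgeR adjusted p = 0.00894) and SMAD2 (0.41, edgeR adjusted p = 0.000338). This count and those below stand beside 17.3% higher and 17.1% lower of all genes with SNF5, and 3.98% and 4.52% with OMOMYC. With OMOMYC 2 of 6 were higher, SMAD1 (0.68, edgeR adjusted p = 0.0215) and SMAD9 (0.50, edgeR adjusted p = 0.0255), both of the BMP branch, and SMAD3 was lower. Intracellular inhibitors split, with 3 higher and 3 lower of 9 with SNF5. SMAD7, the ubiquitin ligase gene SMURF2 (0.43, edgeR adjusted p = 0.0118) and SKIL were higher, and the pseudoreceptor gene BAMBI (−0.40, edgeR adjusted p = 0.00810), PMEPA1 and SKI were lower. Of the latent complex genes, which store and release TGF-beta, THBS1 was higher and LTBP2, LTBP3 and LTBP4 were lower, 1 and 3 of 6. THBS1 had 93, 79 and 1671 gene body reads in EGFP and 166, 159 and 2118 in SNF5, so its samples numbered replicate 3 also stood apart. LTBP2 fell by 0.77 with SNF5 and by 0.56 with OMOMYC on the log2 scale (edgeR adjusted p = 0.00229 and 0.0337).

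Of 18 textbook TGF-beta targets tested, 10 were higher and 3 lower with SNF5, beside 17.3% and 17.1% of all genes. With OMOMYC 0 were called, beside 3.98% higher and 4.52% lower of all genes. TGFBI, a secreted matrix protein named for its induction by TGF-beta, had 0, 5 and 1 gene body reads in EGFP, 0, 6 and 2 in OMOMYC and 28, 66 and 17 in SNF5 (log2 fold change with SNF5 4.04, SE 0.64, edgeR adjusted p = 0.00210). All SNF5 samples of TGFBI were above the others, and only through them did TGFBI pass the filter of a mean of 10 reads. CDKN2B, which encodes the cell cycle inhibitor p15, rose by 1.74 (SE 0.24, edgeR adjusted p = 0.00114), from 32, 24 and 20 reads to 115, 124 and 54. The matricellular gene CTGF rose by 0.72 (SE 0.08, edgeR adjusted p = 0.000267). JUNB, PMEPA1 and SNAI1 were lower, JUNB by −0.47 (edgeR adjusted p = 0.0398), and the fibronectin gene FN1 did not pass (2.77, SE 0.96, edgeR adjusted p = 0.0520). Of 9 textbook BMP targets, 1 was higher (SMAD7) and 2 lower (BAMBI and ID2) with SNF5, and 1 was lower (BAMBI) with OMOMYC. Lists overlap: SMAD7, SKIL, PMEPA1 and BAMBI each stand in more than 1. Of 18 other pathway genes higher with SNF5 and matched to RefSeq, 6 had a gained accessible site in their locus. Such a site lay within 1 kb of a start in 3 (ACVR1, BMPER and ACTA2). Among all 15315 genes matched, the shares were 21.0% and 2.53%.

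**Figure D5:**
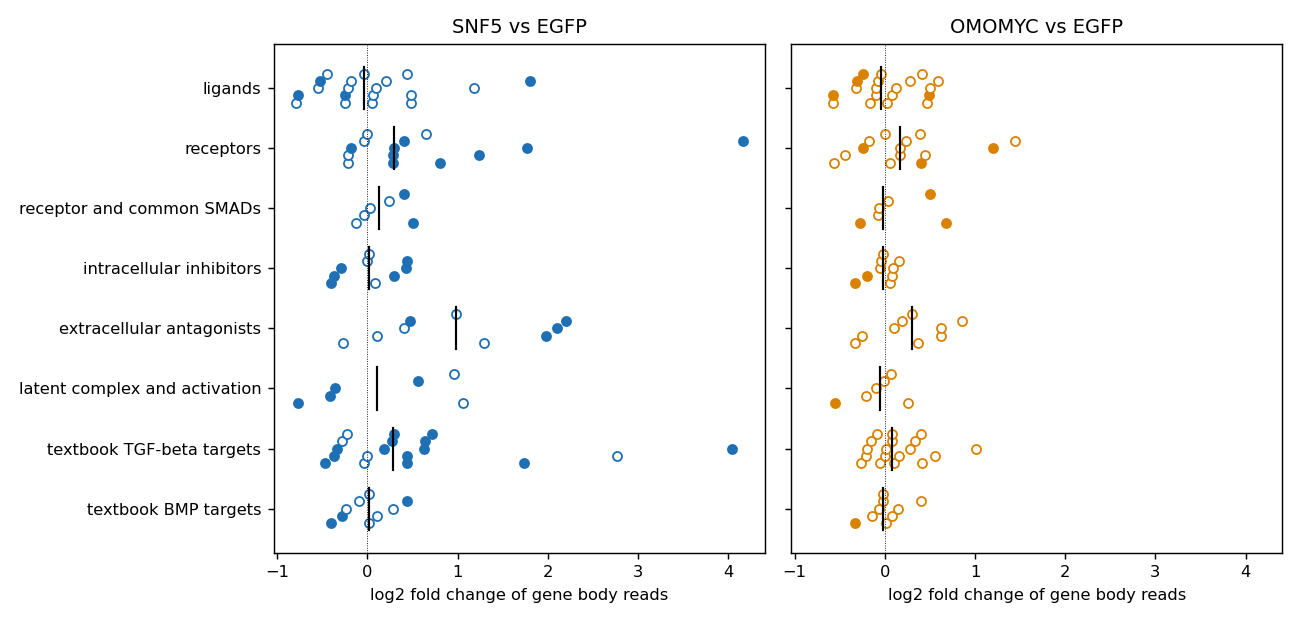
Log2 fold change of gene body reads for every tested gene of each list, SNF5 vs EGFP (left) and OMOMYC vs EGFP (right). Each point is a gene, filled where the adjusted p was under 0.05, and black bars are list medians. With SNF5 8 receptors and 10 textbook TGF-beta targets lie filled to the right of 0.

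Genes whose gene body pattern was most like that of a called member were found by Pearson's r over the 9 samples, after each replicate number's mean was removed, among genes of similar level. The samples share constructs, so r is a description. For TGFBR2 they were CADM1 (r = 0.992), CSF2RB (0.986) and CAMK4 (0.985), of 1561 genes compared. For SMAD7 they were AXL (0.997), SH3KBP1 (0.994) and HDAC9 (0.993), and for TGFBR1 TEX9 (0.995), KIF21A (0.990) and PCNXL2 (0.988). For TGFB2 they were GOLGA1 (0.994), C10orf68 (0.990) and UQCRFS1 (0.990), and for SMAD3 PRRC2B (0.998), CNOT6 (0.984) and AHNAK2 (0.983). For TGFB1 they were SULT4A1 (0.991), ALDH16A1 (0.983) and VPS26B (0.982).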

How the data were processed

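For PRO-seq, the authors trimmed reads with cutadapt, reverse complemented them with FastX tools, aligned them to hg19 with Bowtie2, and removed rRNA reads and reads of mapping quality under 10. The deposited table holds raw read counts per RefSeq transcript from NRSA, and a gene body signal that equals count over length (used here for the length). The deposited ATAC-seq (hg38) and MYC ChIP-seq (hg19) lists give a fold ratio and −log10 p and q values of peaks called per sample with MACS2, at q-values of 0.001 and 0.01. IgG samples were not used.

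The transcript with most gene body reads was kept per symbol (20582 rows, 20367 symbols). Genes with a mean of at least 10 counts were tested with edgeR 4.0.16 (R 4.3.3), with gene body totals and RLE factors as offsets for both regions, over 9 samples, with Benjamini-Hochberg adjustment at 0.05. DESeq2 1.42.0 was an alternative. The pausing test was the interaction of region and construct. The replicate number was a block, because samples sharing a number deviated together (correlations from 0.753 to 0.882 in gene bodies, 0.689 to 0.849 at promoters, and at most 0.126 between other numbers), and the study's methods describe independent experiments and a batch term. P-values thus measure how much the difference between constructs varied between these experiments, with each experiment's own level taken out.

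Peaks overlapping by 1 bp were merged. Loci, starts and promoter sequences came from RefSeq GRCh38.p14, with 15315 genes matched, and no coordinate was converted. Peak sets were compared with SciPy 1.17.1. In simulations with 200 genes changed 2-fold, the gene body SNF5 test recovered 87.5% (7.89% of calls false), the promoter-proximal test 74.0% and the pausing test 58.5%. Genes with the fewest reads were not among those changed. Recovery was also not measured for smaller changes, and all member calls but those of TGFBR2 were smaller than 2-fold. The members, pathway lists and tests were chosen with earlier results of these data known. Genes named beyond the 9 are up to 3 per list and direction by log2 fold change among called genes, the cell checks and the 3 genes most alike each called member, plus ACVR1, ACTA2 and FN1, chosen after their values were seen.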

Additional observations from a re-analysis of the deposited data

How the results depend on the processing

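Members called in gene bodies numbered 4 with SNF5, 2 with OMOMYC and 3 between them. With TMM scaling, DESeq2 or the longest transcript the numbers were the same. With no filter on low counts, or only the 2 groups compared, they were 3 (TGFB1 not called), 2 and 3. With a mean of at least 50 counts they were 3, 2 and 2, since TGFBR2 was not tested. Without the replicate block they were 1 (TGFBR2, edgeR adjusted p = 0.0250), 0 and 0, and with no replicate block 224, 1 and 75 genes were called of all genes in these comparisons. Leaving out replicate numbers or single samples gave 2 to 5, 0 to 4 and 1 to 4 members. In promoter-proximal reads the same settings gave 0 to 1 with SNF5 and 0 to 1 with OMOMYC, and for the pausing index 0 to 1 in each. Scaling from promoter-proximal counts gave 1 member with SNF5 (SMAD6), and moved the OMOMYC split over all genes from 175 higher and 18 lower to 117 and 108. The SMAD6 gene body difference with SNF5 ranged from −0.11 without replicate 3 to 0.095 without replicate 1. Over all genes, DESeq2 called 2107 gene bodies with OMOMYC against 1279 with edgeR, 311 against 485 promoter-proximal regions with SNF5 and 62 against 96 between SNF5 and OMOMYC, and for the pausing index 101 against 408, 68 against 225 and 40 against 128. The cause was not tested. Of the results for single members under an alternative, 1035 kept their side of the threshold, 35 lost a call and 18 newly passed. In 1 more, the sign changed and the result passed in at least 1 of the settings compared. Changes of sign among results that passed in neither setting were not counted, and stand within the 1035.

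Loci with a site gained with SNF5 numbered 4. They were 2 with 10 kb to each side, 0 with equal numbers of top peaks, 1 at −log10 q of at least 10, 8 where 2 of 3 samples sufficed, and 4 to 7 without a replicate number. The difference in peaks per sample, SNF5 minus EGFP, was 18.3, and 8.67 with 10 kb, 27.7 with 100 kb, −1 with equal numbers of top peaks and 6.33 at −log10 q of at least 10. SNF5 minus OMOMYC was 14.7, and 0 with equal numbers of top peaks. Members with an EGFP MYC peak numbered 3, and 1 to 3 without a replicate, a setting chosen after seeing the data. Depth limits TGFBR2 and INHBA, with 13 and 3 gene body reads in all EGFP samples together.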
